A study of Mus musculus with 2 samples.

Results

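The family of 2′-5′ oligoadenylate synthetases (OAS) is represented here by the 8 genes Oas1a, Oas1b, Oas1c, Oas1g, Oas2, Oas3, Oasl1 and Oasl2, taken by symbol from the transcript entries and joined by gene identifier to the gene tables, out of 55536 genes in all. They were measured by RNA-seq of polyadenylated RNA in 2 libraries of bone marrow-derived macrophages of the mouse strain C57BL/6J. Both libraries, biological replicates 2 and 1, belong to a single group that received 100 ng/ml of a ligand for 30 min; lipoprotein A is the name in the treatment label, while the description says lipid A. Replicates 2 and 1 are separate biosamples listed under the same donor record, and no untreated macrophages were analysed here, so no value below is a response to the ligand. Depth over genes was 51904470 expected counts in replicate 2 and 37784941 in replicate 1.

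OAS proteins are interferon-induced enzymes that are switched on by double-stranded RNA and join ATP into short oligoadenylates with an unusual 2′-5′ linkage, called 2-5A. 2-5A is a second messenger that leads to the cutting of single-stranded viral and cellular RNA, slowing protein synthesis and viral growth. The family also holds OAS-like proteins with ubiquitin-like domains, and in the mouse a tandem array of Oas1 copies of which some have lost the enzymatic activity. Macrophages are known to carry part of this system at rest through low constitutive interferon signalling.

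All 8 genes lie on chromosome 5 of assembly mm10, in a pair of clusters. The Oas cluster holds 10 annotated genes and runs from 120730333 to 120921652, a span of 191.3 kb, in the order Oas2, Oas3, Oas1e, Oas1c, Oas1b, Oas1f, Oas1h, Oas1g, Oas1a, Oas1d. The Oasl cluster holds Oasl2 and Oasl1 on the forward strand and runs from 114896936 to 114937915, a span of 41.0 kb. Oas2 (ENSMUSG00000032690.16, 120730333 to 120749853), Oas3 (ENSMUSG00000032661.9, 120753098 to 120777661), Oas1c (ENSMUSG00000001166.17, 120800194 to 120812514), Oas1g (ENSMUSG00000066861.14, 120876142 to 120887613) and Oas1a (ENSMUSG00000052776.10, 120896256 to 120907521) are on the reverse strand. Oas1b (ENSMUSG00000029605.16, 120812635 to 120824163) is on the forward strand and is annotated as a polymorphic pseudogene. Oasl2 is ENSMUSG00000029561.17 (114896936 to 114912234) and Oasl1 is ENSMUSG00000041827.15 (114923240 to 114937915).

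**Figure D1:**
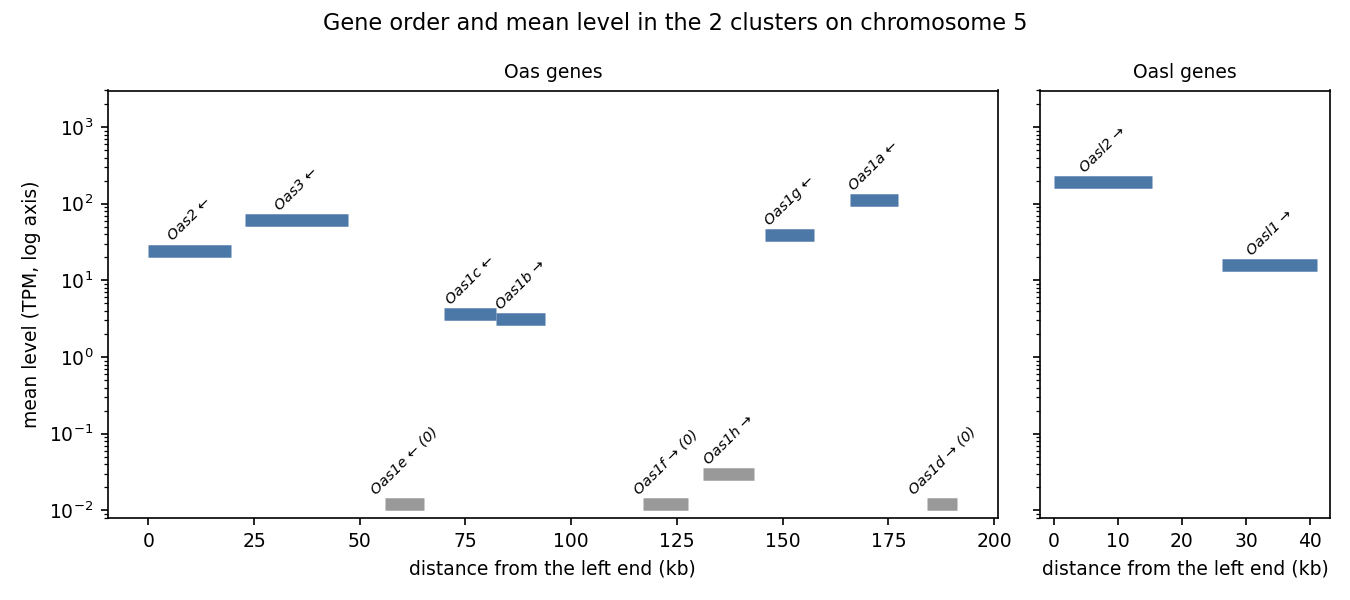
Mean TPM of the 2 libraries (log axis) for each gene, drawn over its extent in kb from the left end of its cluster, with blue for the 8 genes described, grey for the other Oas1 copies and arrows for the strand. Oas1d, Oas1e and Oas1f, marked (0) and drawn at the foot of the axis, were listed at 0, and the levels of the 2 neighbours Oas1c and Oas1b lay well below those of Oas1g and Oas1a in the same array.

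Interferon acts on such genes through the interferon-stimulated response element (ISRE), bound by the ISGF3 complex and by IRF proteins. Promoter windows from RefSeq (GRCm38.p6), of 300 bases with 250 before and 50 after the annotated start, were found for 6 of the 8 genes, and Oas1b and Oas2 had none. The ISRE core, GAAA followed by any 2 bases and GAAA again, searched on both strands with overlapping matches counted, was present in 4 of the 6, and in 1131 of all 32851 windows, or 3.44%. The 4 stretches below are shown because they hold these matches, and the capitals mark the matched bases; matches that overlap make a single run of capitals.
Oas1a, chr5:120907520-120907619, reverse strand: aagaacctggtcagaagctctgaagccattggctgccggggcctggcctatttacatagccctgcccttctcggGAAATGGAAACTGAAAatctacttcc
Oas1g, chr5:120887606-120887705, reverse strand: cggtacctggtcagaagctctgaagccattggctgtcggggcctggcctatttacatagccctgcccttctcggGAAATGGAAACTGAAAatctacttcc
Oas3, chr5:120777715-120777814, reverse strand: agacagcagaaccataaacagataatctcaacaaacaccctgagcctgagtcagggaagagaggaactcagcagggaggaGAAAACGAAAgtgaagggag
Oas1c, chr5:120812563-120812662, reverse strand: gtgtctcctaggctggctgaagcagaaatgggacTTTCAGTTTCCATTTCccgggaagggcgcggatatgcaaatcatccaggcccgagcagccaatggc

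Oas1a and Oas1g carried the same run of 2 overlapping matches just before the start, at bases -20 to -5 of Oas1a and -18 to -3 of Oas1g, and their windows were 88.8% identical over the aligned bases. Oas3 had 1 match at -75 to -66. The Oas1c window held 2 overlapping matches on the strand opposite to the gene. They lie at 120812613 to 120812628, 7 bases before the annotated start of Oas1b, whose start is 121 bases from that of Oas1c, so that this divergent pair shares the stretch. Oasl1 and Oasl2 had no match in their windows. The GAS motif TTCNNNGAA, bound by STAT dimers, was found in Oas1a alone of the 6, at -98 to -90, and in 8.3% of all windows. A match is a run of letters and not a site shown to be bound.

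**Figure D2:**
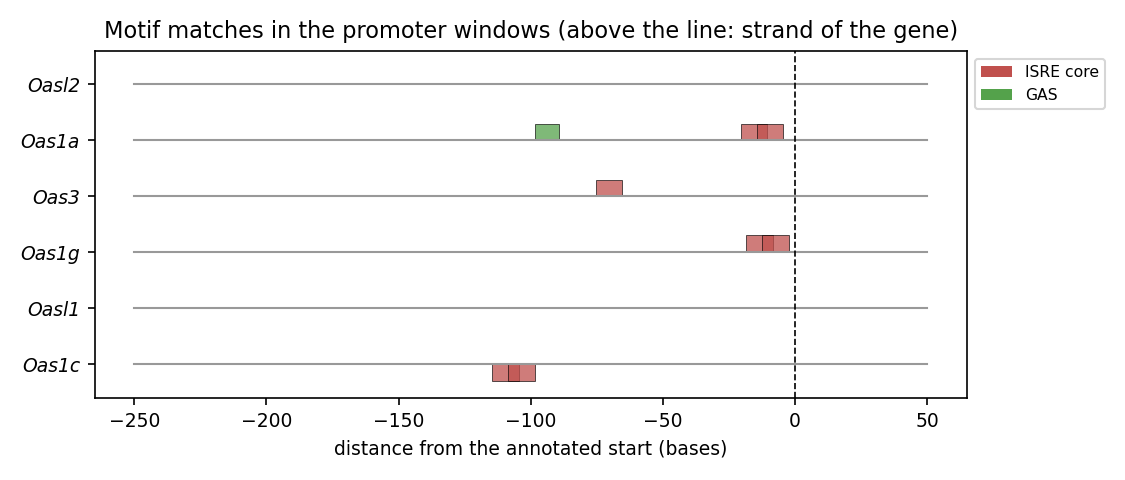
Position of ISRE core (red) and GAS (green) matches in the promoter windows of the 6 genes that had one, in bases from the annotated start, with marks above the line on the strand of the gene and below it on the opposite strand. Oas1a and Oas1g have their overlapping ISRE cores within 20 bases of the start, and Oasl1 and Oasl2 have no match.

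C57BL/6 mice are known for an Oas1b that ends early and for their susceptibility to flaviviruses, which an intact Oas1b restrains. Read from its annotated start codon, the frame of the Oas1b transcript Oas1b-203 ran for 252 codons to the first stop. This stop was a TGA in exon 4 of 6, at 120821308 to 120821310, and lay 270 bases before the last exon junction. The frames of Oas1a-201 and Oas1g-201 ran for 367 codons and ended in exon 7 of 7. The stretches of 60 bases below show the stop of Oas1b, in capitals, beside the codon at the same place in exon 4 of Oas1a and Oas1g, in capitals as well (GRCm38).
Oas1b-203, chr5:120821278-120821337, forward strand: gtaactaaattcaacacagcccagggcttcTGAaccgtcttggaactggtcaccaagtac
Oas1a-201, chr5:120899162-120899221, reverse strand: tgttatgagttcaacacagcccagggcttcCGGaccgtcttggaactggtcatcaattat
Oas1g-201, chr5:120879189-120879248, reverse strand: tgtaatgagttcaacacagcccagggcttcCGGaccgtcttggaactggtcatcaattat

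The copies are close enough that reads can be shared. The reading frames of Oas1a and Oas1g were identical at 96.7% of bases, and Oas1b-203, aligned from its start codon over the same length and so past its own stop, matched Oas1a at 80.0% of bases and Oas1g at 80.4%. Of the 31-base stretches in the transcripts of Oas1a, 68.8% also occurred in another gene, against 55.1% for Oas1g, 20.7% for Oas1c and 6.7% for Oas1b. For Oas3, Oasl2 and Oasl1 the shares were 2.05%, 1.23% and 0.112%, and Oas2 shared 0. The split of counts between Oas1a and Oas1g is therefore uncertain beyond the values given for each. The gene tables put the posterior standard deviation of their counts at 17.93 in replicate 2 and 14.24 in replicate 1, which is 0.259% of the Oas1a count in replicate 2 and 0.35% in replicate 1. For Oas1g it is 0.868% in replicate 2 and 1.22% in replicate 1. This covers the assignment of reads by that method only.

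All 8 genes reached 1 TPM in replicate 2 and in replicate 1, the limit for detection used here. TPM counts transcripts relative to the library's total after scaling for length, so that genes can be compared with each other. Among the 10658 genes detected their mean levels lay between the percentiles 12.2 and 93.7. The 2 highest were Oasl2 and Oas1a, and the 2 lowest were Oas1c and Oas1b. Every gene was higher in replicate 2 in TPM, in both quantifications, and no gene had a value at 0.

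Oasl2 encodes an OAS-like protein with ubiquitin-like domains that in the mouse has kept the enzymatic activity. Its level was 236.19 TPM in replicate 2 and 150.24 TPM in replicate 1 (193 ± 60.8, SD, n = 2), higher than 93.7% of detected genes. The second quantification, which was made from the reads and a transcript index, gave 197 TPM in replicate 2 and 114 TPM in replicate 1. Oasl2 made up 42.7% of the summed TPM of the 8 genes in replicate 2 and 42.6% in replicate 1, so its place in the family was the same in both. Oasl1, its neighbour, has no enzymatic activity and in the mouse holds back the translation of Irf7 mRNA. Its level was 18.51 TPM in replicate 2 and 13.47 TPM in replicate 1 (16.0 ± 3.56, SD, n = 2), near the middle of detected genes at 49.5%.

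Oas1a and Oas1g encode active OAS enzymes of a single catalytic unit. Oas1a was at 122.4 TPM in replicate 2 and 100.36 TPM in replicate 1 (111 ± 15.6, SD, n = 2; in the second quantification 105 TPM in replicate 2 and 80.3 TPM in replicate 1). Oas1g was at 46.67 TPM in replicate 2 and 32.5 TPM in replicate 1 (39.6 ± 10.0, SD, n = 2; in the second quantification 48.7 TPM in replicate 2 and 28.3 TPM in replicate 1). Together these neighbours carried nearly all Oas1 signal, 95.2% of the summed TPM of the 8 Oas1 copies (Oas1a to Oas1h) in replicate 2 and 96.3% in replicate 1. That sum was 178 TPM in replicate 2 and 138 TPM in replicate 1, a ratio of 1.29; in the second quantification it was 165 TPM in replicate 2 and 114 TPM in replicate 1, a ratio of 1.45. Oas1a exceeded Oas1g by 2.62 times in replicate 2 and 3.09 times in replicate 1, and in the second quantification by 2.16 times in replicate 2 and 2.84 times in replicate 1.

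Oas3 and Oas2 encode the large OAS proteins, in which several OAS domains are joined in a chain; OAS3 is known to sense long double-stranded RNA and to be the main source of 2-5A in human cells. Oas3 was at 85.36 TPM in replicate 2 and 38.2 TPM in replicate 1 (61.8 ± 33.3, SD, n = 2; in the second quantification 75.6 TPM in replicate 2 and 31.4 TPM in replicate 1). Oas2 was at 36.06 TPM in replicate 2 and 13.0 TPM in replicate 1 (24.5 ± 16.3, SD, n = 2; in the second quantification 33.5 TPM in replicate 2 and 10.7 TPM in replicate 1). Both took a larger share of the family in replicate 2. For Oas3 the share of the summed TPM was 15.4% in replicate 2 and 10.8% in replicate 1, and for Oas2 it was 6.51% in replicate 2 and 3.68% in replicate 1. Oas1a took 22.1% in replicate 2 and 28.4% in replicate 1.

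Oas1c and Oas1b, the divergent pair, were low. Oas1c was at 3.87 TPM in replicate 2 and 3.44 TPM in replicate 1, from 243 expected counts in replicate 2 and 150 in replicate 1 (3.66 ± 0.304, SD, n = 2). Oas1b was at 4.65 TPM in replicate 2 and 1.65 TPM in replicate 1, from 176 expected counts in replicate 2 and 49 in replicate 1 (3.15 ± 2.12, SD, n = 2). The order of these neighbours was not the same in both libraries, with Oas1b above Oas1c in replicate 2 and below it in replicate 1. In the second quantification Oas1b stood at 6.09 TPM in replicate 2 and 1.83 TPM in replicate 1, and Oas1c at 4.5 TPM in replicate 2 and 3.2 TPM in replicate 1.

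By mean TPM the order was Oasl2, Oas1a, Oas3, Oas1g, Oas2, Oasl1, Oas1c, Oas1b. Of the 7 neighbouring pairs in it, 3 had ranges over the 2 libraries that did not overlap, namely Oasl2 above Oas1a, Oas1a above Oas3, and Oasl1 above Oas1c. The ranges of the other 4 pairs overlapped. Within each library, though, and in both quantifications, Oas3 stood above Oas1g and Oas1g above Oas2. The genes whose levels were nearest to that of Oasl2 over the 4 values (2 libraries by 2 quantifications, as Euclidean distance of log2(TPM + 1)) were Npm1 at 0.116, Ncf1 at 0.173, Tgif1 at 0.185, Prkcd at 0.205 and Scp2 at 0.207.

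**Figure D3:**
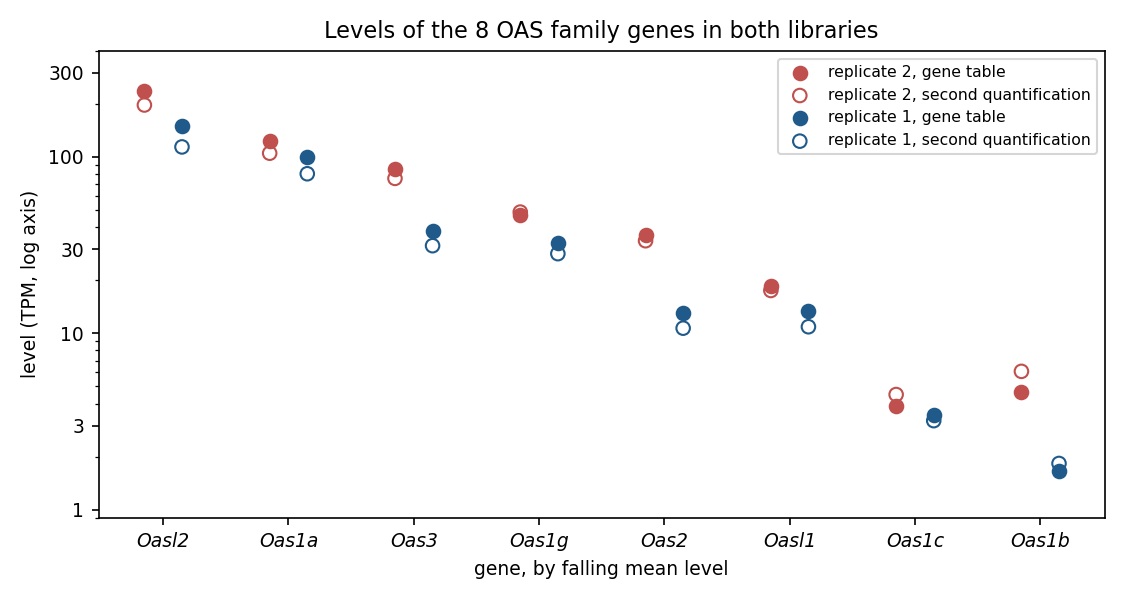
TPM (log axis) of the 8 genes, with replicate 2 in red left of replicate 1 in blue, filled points for the gene table and open points for the second quantification. Red points lie above blue ones for each gene in both quantifications, with the widest gaps for Oas2, Oas3 and Oas1b.

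Whether the libraries differed beyond counting error was asked gene by gene with a two-sided exact binomial test on the rounded expected counts, scaled by TMM (trimmed mean of M values, a scaling that sets the bulk of genes equal), with Benjamini-Hochberg adjustment over 12266 genes. The test compares these libraries and not conditions, and it has no replicate error in it. In it 7 of the 8 genes were called higher in replicate 2, 0 were called lower and 1, Oas1c, was not called. Over all genes tested 32.2% were called higher and 31.3% lower, so calls in either direction were common at this depth. The genes more than 2-fold higher were 3 of 8, namely Oas2, Oas1b and Oas3, against 5.09% of all genes tested, and 0 of 8 were more than 2-fold lower, against 3.12% of all genes tested. The median log2 ratio of the 8 genes was 0.46, against 0.00 over all genes tested. Ratios on this scale were smaller than ratios of TPM for each gene.

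The genes with the widest difference were those of the large enzymes and Oas1b, the copy with the early stop. Oas2 had 4420 expected counts in replicate 2 and 1170 in replicate 1, a scaled ratio of 2.54 (95% exact interval 2.38 to 2.71, adjusted p = 3e-204), beyond 97.3% of genes tested. Oas3 had 13341 expected counts in replicate 2 and 4231 in replicate 1, a ratio of 2.12 (2.04 to 2.19), beyond 95.8% of genes. Oas1b had a ratio of 2.41, but with few counts its exact interval ran from 1.75 to 3.38 (adjusted p = 2.4e-08). Intervals cover counting error only.

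The OAS-like and small enzymes differed less. Oasl2 had 17210 expected counts in replicate 2 and 7874 in replicate 1, a ratio of 1.47 (exact interval 1.43 to 1.51, adjusted p = 2.4e-180), beyond 85.5% of genes. Oasl1, with 1194 counts in replicate 2 and 625 in replicate 1, had a ratio of 1.28 (exact interval 1.16 to 1.41, adjusted p = 1.1e-06). Oas1g had 2066.19 expected counts in replicate 2 and 1164.44 in replicate 1, a ratio of 1.19 (exact interval 1.11 to 1.28, adjusted p = 4.5e-06). Oas1a had 6927.81 expected counts in replicate 2 and 4063.56 in replicate 1, a ratio of 1.14 (exact interval 1.10 to 1.19, adjusted p = 3.1e-11). Both Oas1a and Oas1g lay within the range that a large part of all genes shows, at 67.3% and 71.5% of the ordered ratios. Oas1c had a ratio of 1.09 with an exact interval of 0.883 to 1.34 (adjusted p = 0.52).

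**Figure D4:**
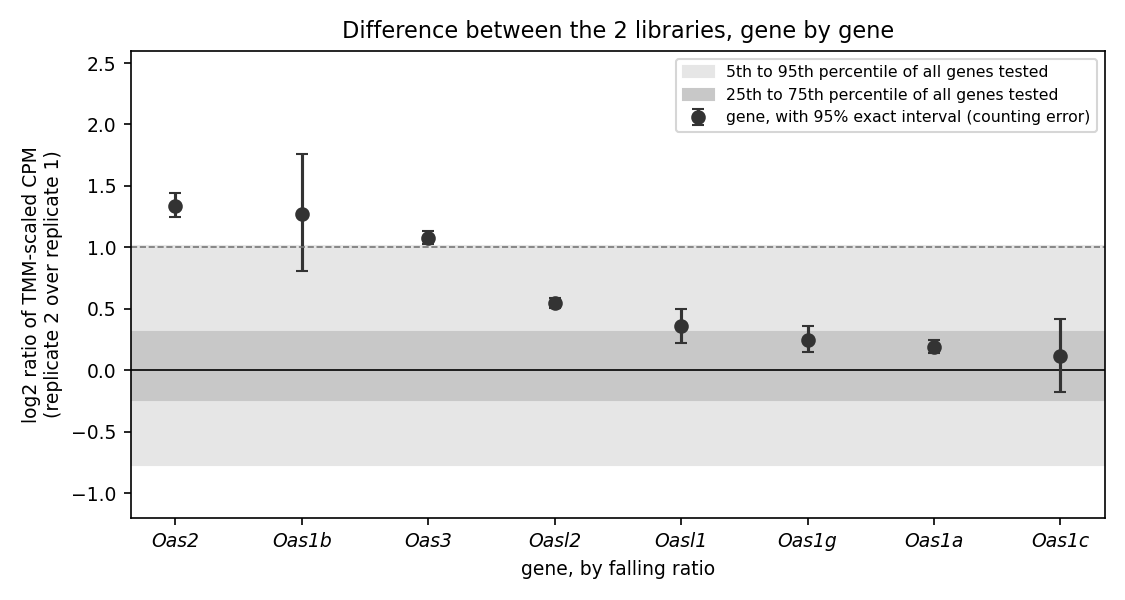
Log2 ratio of TMM-scaled CPM, replicate 2 over replicate 1, for each gene with its 95% exact interval (counting error only), over grey bands for the 5th to 95th and 25th to 75th percentiles of the 12266 genes tested; the dashed line marks a 2-fold difference. Above that line are Oas2 at 1.34, Oas1b at 1.27 and Oas3 at 1.08, and Oas1g, Oas1a and Oas1c lie within the inner band.

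Transcript tables split these genes by annotated isoform, and 2 of them had a large share in transcripts annotated as subject to nonsense-mediated decay (NMD), the pathway that degrades mRNAs with an early stop. In Oasl2 the NMD transcript Oasl2-205 held 59.1% of the gene's TPM in replicate 2 and 62.5% in replicate 1 (in the second quantification 45.4% in replicate 2 and 50.9% in replicate 1), and coding transcripts held 34.2% in replicate 2 and 34.3% in replicate 1 (44.7% in both libraries in the second quantification). In Oas1g the NMD transcript Oas1g-203 held 54.7% in replicate 2 and 47.9% in replicate 1 (in the second quantification 60.4% in replicate 2 and 59.0% in replicate 1). Its coding transcript Oas1g-201 held less than the NMD transcript in replicate 2 and 48.4%, about as much, in replicate 1 (in the second quantification 17.8% in replicate 2 and 34.1% in replicate 1). That transcript was at 14.47 TPM in replicate 2 and 15.72 TPM in replicate 1, so the higher gene level in replicate 2 was not seen in that isoform. The second quantification gave 8.65 TPM in replicate 2 and 9.66 TPM in replicate 1 for it. Such shares are estimates from reads over overlapping isoforms. For Oas1g they can also depend on the split of reads with Oas1a, which shares 54.6% of the 31-base stretches of Oas1g.

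Of the other genes, all but Oas1b were mainly coding. Oas1a had 1 annotated transcript, Oas1a-201. Coding transcripts made up 99.6% of Oas3 TPM in replicate 2 and 100% in replicate 1, and Oas3-201 alone made up 99.2% in replicate 2 and 99.4% in replicate 1. For Oas2 coding transcripts held 94.5% in replicate 2 and 99.0% in replicate 1, with Oas2-201 at 80.3% in replicate 2 and 85.2% in replicate 1. Oas2-202 held 12.4% in replicate 2 and 13.8% in replicate 1. Oasl1 was led by Oasl1-202, with 88.2% in replicate 2 and 88.6% in replicate 1, and Oas1c by Oas1c-201, with 87.6% in replicate 2 and 85.1% in replicate 1. In Oas1b the transcript Oas1b-203, whose reading frame ends early, held 62.4% in replicate 2 and 69.7% in replicate 1. The short processed transcript Oas1b-202 held the rest, 37.6% in replicate 2 and 30.3% in replicate 1.

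Transcripts annotated as retaining an intron took a larger share in replicate 2 in each of the 5 genes that have one with a value above 0. In Oas1g the share of Oas1g-202 was 14.2% in replicate 2 and 3.69% in replicate 1, from 113.12 expected counts in replicate 2 and 15.15 in replicate 1. In Oasl2 such transcripts held 6.77% in replicate 2 and 3.27% in replicate 1. In Oas2 the share was 5.57% in replicate 2 and 1.0% in replicate 1, and in Oasl1 it was 4.37% in replicate 2 and 0.668% in replicate 1. Oas3 had 0.387% in replicate 2 and 0 in replicate 1. The second quantification gave the same direction in all 5. Over the 6241 genes with such transcripts 67.7% also had the larger share in replicate 2, with a median share of 2.10% in replicate 2 and 0.742% in replicate 1, so the direction is that of most genes in these libraries.

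**Figure D5:**
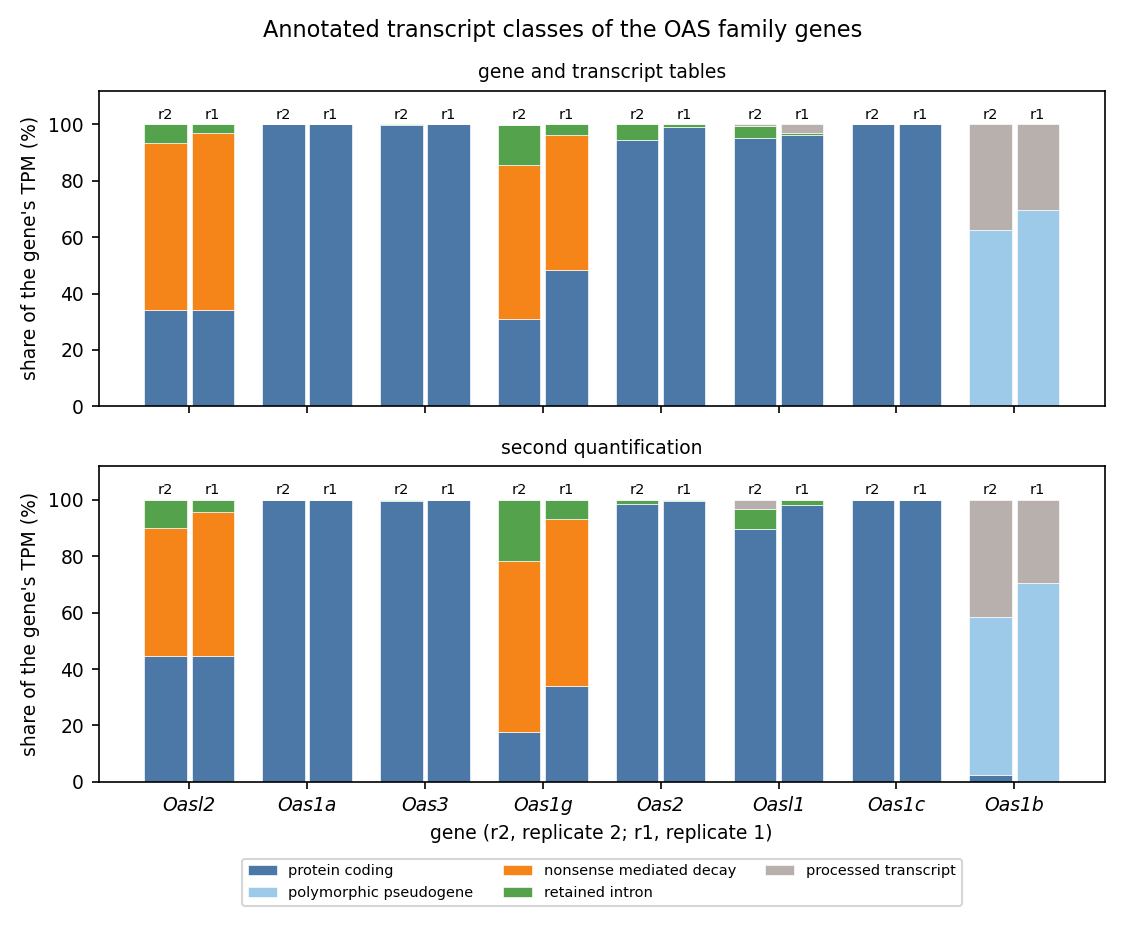
Share of each gene's TPM (%) by annotated transcript class, with replicate 2 (r2) left of replicate 1 (r1), for the gene and transcript tables (top) and the second quantification (bottom). Orange marks transcripts annotated as subject to nonsense-mediated decay in Oasl2 and Oas1g, and green marks retained-intron transcripts, which take a larger share in r2.

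Genes that act on 2-5A or its effect downstream of the OAS enzymes were also measured. Abce1, a ribosome recycling factor also known to restrain the 2-5A pathway, was at 24.77 TPM in replicate 2 and 19.1 TPM in replicate 1, a ratio of 1.23 (exact interval 1.16 to 1.31, adjusted p = 1.8e-11). Pde12, a phosphodiesterase that breaks down 2-5A, was at 4.16 TPM in replicate 2 and 3.74 TPM in replicate 1 and was not called (exact binomial test, adjusted p = 0.34). Of the other Oas1 copies, Oas1d, Oas1e and Oas1f had 0 counts in both libraries, where a count of 0 allows up to 3 counts, or 0.0578 CPM (counts scaled to the library's total) in replicate 2 and 0.0794 in replicate 1. Oas1h had 3 counts in replicate 2 and 0 in replicate 1. In the second quantification Oas1h had 19 counts in replicate 2 and 2 in replicate 1, and Oas1d and Oas1e had 1 each in replicate 2.

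Other sensors of double-stranded RNA and their partners were detected in 10 of 10 genes. Of these, 7 were called higher in replicate 2 and 3 lower, against 32.2% higher and 31.3% lower over all genes tested. Their median log2 ratio was 0.58. The 3 of highest level were Zbp1, a sensor of Z-form nucleic acid, at 132.67 TPM in replicate 2 and 55.2 TPM in replicate 1, and the helicase genes Ddx58 and Dhx58. Ddx58, which encodes RIG-I, was at 90.23 TPM in replicate 2 and 47.53 TPM in replicate 1. Dhx58, which encodes LGP2, was at 72.67 TPM in replicate 2 and 50.48 TPM in replicate 1. Zbp1, with a ratio of 2.17, was the only one of the 10 more than 2-fold higher, against 5.09% of all genes tested. Mavs, Ticam1 and Prkra were the 3 called lower, with ratios of 0.892, 0.726 and 0.882.

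Of the 4 genes of the type I interferon receptor and its kinases, 3 were called lower in replicate 2 and 1, Tyk2, higher. Over all genes tested 31.3% were called lower and 32.2% higher. Ifnar2, a receptor chain, was at 143.91 TPM in replicate 2 and 171.06 TPM in replicate 1, and Jak1, a receptor kinase, at 105.43 TPM in replicate 2 and 114.1 TPM in replicate 1, and both were called lower. Ifnar1, the other receptor chain, was called lower as well, at 59.07 TPM in replicate 2 and 58.15 TPM in replicate 1, with a scaled log2 ratio of -0.06. The size of this ratio is below the 0.12 by which scaling by total counts shifted the median of all genes tested. Tyk2, the other kinase, was at 28.42 TPM in replicate 2 and 22.64 TPM in replicate 1, a ratio of 1.16 (exact binomial test, adjusted p = 8.6e-09). Usp18, which dampens receptor signalling, was called higher, at 44.18 TPM in replicate 2 and 22.78 TPM in replicate 1. Of the 9 genes of interferon production, 5 could be tested and 5 were called higher, against 32.2% of all genes tested, with a median log2 ratio of 0.48. Irf1 had 463.59 TPM in replicate 2 and 150.38 TPM in replicate 1 and a ratio of 2.87. It was the only one of the 5 tested that was more than 2-fold higher, against 5.09% of all genes tested. Irf7 had 207.43 TPM in replicate 2 and 112.28 TPM in replicate 1 and a ratio of 1.65. Ikbke, a kinase of IRF proteins, had 83.41 TPM in replicate 2 and 60.31 TPM in replicate 1 and a ratio of 1.17. Ifnb1, the gene of interferon beta, had 59 counts in replicate 2 and 1 in replicate 1, and did not pass the filter on low counts, and Ifna1 and Ifna4 had 0 counts in both.

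The label of the cells was checked with markers. Both libraries had all 10 macrophage markers at 1 TPM or more, and their summed level was 28700 TPM in replicate 2 and 22400 TPM in replicate 1. Of 10 neutrophil markers 4 reached 1 TPM in both libraries, and their summed level was 59.1 TPM in replicate 2 and 357 TPM in replicate 1. Most of it came from S100a9, at 37.06 TPM in replicate 2 and 182.64 TPM in replicate 1, S100a8, at 18.1 TPM in replicate 2 and 123.82 TPM in replicate 1, and Ngp, at 2.09 TPM in replicate 2 and 39.25 TPM in replicate 1. Ltf had 46 counts in replicate 2 and 383 in replicate 1, and Mpo had 3 in replicate 2 and 46 in replicate 1. Camp had 2 counts in replicate 2 and 23 in replicate 1, and Elane had 1 in replicate 2 and 20 in replicate 1. Cxcr2, with 28 counts in replicate 2 and 31 in replicate 1, was not called. Ly6g and Retnlg were at 0 in replicate 2 and had only 1 and 3 counts in replicate 1. In bulk RNA fewer cells of a type and less RNA per cell cannot be told apart, and the part of this difference in the OAS values was not tested. Plasmacytoid dendritic cells, a main source of interferon, had 0 of 5 markers at 1 TPM or more in both libraries (summed level 1.62 TPM in replicate 2 and 2.37 TPM in replicate 1). The dendritic cell list likewise had 0 of 6, with 1.78 TPM in replicate 2 and 3.80 TPM in replicate 1. The T cell list had 1 of 5 markers at that level, Cd4, at 82.17 TPM in replicate 2 and 111.1 TPM in replicate 1, and the B cell list had 1 of 5, Cd79b. The NK cell list had 0 of 5 and the stromal list 0 of 4.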

How the data were processed

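Polyadenylated RNA of 2 macrophage libraries of 1 group was sequenced. Per the deposited text files, assembly mm10 and annotation M21 were used; the quantification tools are not given in the sources used. Per the file headers, the deposited gene and transcript tables gave expected counts, not normalized, the posterior standard deviation of the count, TPM, and per transcript its percent of the gene. A second deposited transcript table gave estimated counts and TPM and was summed per gene as an alternative. Entries that name no gene took 0.0698% of the counts of replicate 2 and 0.0891% of those of replicate 1 and were left out.

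Expected counts were rounded, filtered with filterByExpr and scaled by TMM in edgeR 4.0.16; edgeR fitted no model, since 1 group has no contrast. The exact binomial test was run per gene in scipy 1.17.1 with Benjamini-Hochberg adjustment at 0.05, after the script had been tested on simulated data. Because p-values rest on read counts of 2 libraries, they cover counting error only, and without molecular identifiers reads cannot be taken as separate molecules. Alternatives were DESeq2 1.42.0 size factors, total counts, upper-quartile scaling, no filter, other detection limits, either library alone, and the second quantification. For mean levels, TPM was also rescaled over protein-coding genes.

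The genes named were the 8 members, in each pathway list the 3 of highest mean TPM, those at 0 counts and genes of the 2-5A list, the 5 nearest to the highest member, and transcripts with 5% of a gene's TPM. Irf7, Ifnar1, Tyk2, Usp18, Mavs, Ticam1, Prkra, Ifnb1 and the neutrophil markers were in part chosen for naming after their values were seen, as was the retained-intron comparison. Members and lists were chosen with earlier results of these data known. Sequences are from RefSeq promoters (GRCm38.p6) and GENCODE M21 transcripts. Some genes of the pathway lists, and the list counts that include them, are not reported here.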

Additional observations from a re-analysis of the deposited data

How the results depend on the processing

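The number of genes detected stayed at 8 with the second quantification, with a limit of 0.5 TPM and in either library alone, and was 6 with a limit of 5 TPM, under which Oas1b and Oas1c are lost. The counts of 7 genes called higher and 3 more than 2-fold higher were the same under each scaling, filter and quantification tried, but the share of all genes more than 2-fold higher was not: 5.09% became 7.96% in the second quantification and 21.1% with no filter on low counts, where 21.1% were called higher and 20.8% lower. Scaling by total counts shifted the median log2 ratio of all genes tested by 0.12 and gave 42.8% called higher and 20.3% lower, in place of 32.2% and 31.3%, and the median of the 8 genes was then 0.57. In the order by level, 6 of the 8 ranks were kept in each alternative: Oas1b and Oas1c changed places in the second quantification and in replicate 2 alone, and Oas2 and Oasl1 did so in replicate 1 alone. The share of the leading transcript moved beyond the spread between libraries in 5 of 8 genes with the second quantification, for Oasl2 to 48.1% from a mean of 60.8% in the transcript table. The mean level also moved beyond that spread in 2 genes. For Oas1a, 111 TPM became 92.8 in the second quantification and 130 when TPM was rescaled over protein-coding genes. With that rescaling Oas1c moved from 3.66 to 4.26 TPM. Protein-coding genes held 88.5% of all TPM in replicate 2 and 83.1% in replicate 1, so TPM ratios between the libraries depend on this choice. No paired analysis was possible because the libraries form a single group. With 176 and 49 counts for Oas1b in replicates 2 and 1, depth limits its ratio, and with few counts also the retained-intron shares of Oas2, Oasl1 and Oas3.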
